A study of Homo sapiens with 6 samples.

Results

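Death receptors are members of the tumour necrosis factor receptor superfamily that carry a death domain in their cytoplasmic tail. When ligand gathers them, they recruit the adaptor FADD, which in turn gathers the initiator caspases 8 and 10, while cFLIP, the product of CFLAR, takes a place in the same complex and limits or shapes caspase activation. TRAIL and Fas ligand act mainly through this route. The TNF receptor with a death domain, TNFR1, uses it as one of several outputs beside NF-kappaB signalling. The transcripts described here are 10 genes of this route or of related receptors, named by symbol from 26410 rows of the count table. They are the TRAIL receptors TNFRSF10A, TNFRSF10B and TNFRSF10D, the Fas receptor gene FAS, the TNF receptors TNFRSF1A and TNFRSF1B, and FADD, CASP8, CASP10 and CFLAR. All 10 were found, and all 10 passed the filter on low counts with which 13014 genes were tested.

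RNA was sequenced from Kasumi-1, an established human acute myeloid leukaemia cell line. The shPHF19 group (3 libraries) carried a lentiviral hairpin against PHF19, an accessory subunit of Polycomb repressive complex 2, and the control group (3 libraries) a scrambled hairpin, although GEO's treatment field gives these samples as WT. Both groups took up the same kind of vector, which also encodes a green fluorescent protein and puromycin resistance, and both then stood under puromycin (2 µg/ml) for 24 h or more, beginning 48 h after transfection. The labels do not say whether replicates came from separate cultures or separate transductions or how many hairpins were used, so the spread behind each p-value is that of these libraries and may be technical only.

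The libraries held 14663463 to 16615143 counts in the shPHF19 group and 14229878 to 15961787 in the control group. PHF19 itself stood at 41.1, 36.9 and 33.0 CPM in shPHF19 libraries, against 167, 199 and 189 CPM in control libraries (log2 fold change -2.32, SE 0.0975; edgeR quasi-likelihood test, adjusted p = 3.75e-25). CPM is the usual per-library scaling of counts, here with TMM factors between libraries. Markers of a myeloid progenitor line were present: MPO was at a mean of 8386 CPM in shPHF19 and 4274 CPM in control libraries, and KIT at 3288 CPM in shPHF19 and 2937 CPM in control libraries. The 9 markers of that list summed to 12658 to 13432 CPM in shPHF19 and 7921 to 8230 CPM in control libraries, mostly MPO and KIT. Of 8 tested, 4 were higher and 2 lower, beside 29.4% and 30.9% of all genes. CD38 was not tested, with 4, 6 and 2 counts in shPHF19 and 0, 6 and 0 in control libraries. Of the erythroid and megakaryocytic markers looked up, PF4 was at 0 in every library, and the 5 genes of that list summed to 7.09 to 9.20 CPM in shPHF19 and 6.57 to 10.2 CPM in control libraries. The 6 lymphoid markers summed to 60.5 to 64.1 CPM in shPHF19 and 44.5 to 53.3 CPM in control libraries, mostly CD3D, and the 6 epithelial and fibroblast markers to 83.4 to 99.2 CPM in shPHF19 and 55.8 to 71.5 CPM in control libraries, mostly EPCAM. Their part in the results below was not tested.

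The death receptor genes did not move as a block in PHF19-silenced cells. TNFRSF10B, TNFRSF10D, TNFRSF1B, CFLAR and CASP8 fell, TNFRSF1A and FADD rose, and TNFRSF10A, FAS and CASP10 did not pass the test. Of the 5 falls, 3 were at least 2-fold and that of CASP8 was smaller than either rise, and neither rise reached 2-fold. Of the 10 genes, 7 had an adjusted p under 0.05 (edgeR), where 60.2% of all genes tested passed. The 5 that fell stand beside 30.9% of all genes, and the 2 that rose beside 29.4%. Their median log2 fold change was -0.26, against -0.03 over all genes. The 3 that fell at least 2-fold stand beside 10.9% of all genes, and the 0 that rose as much beside 5.72%. The groups were separate, library by library, for 7 of the 10 genes, as for 63.5% of all genes, so neither count sets these genes apart. In RNA from whole cultures, fewer cells that express a gene and less RNA per cell cannot be told apart.

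**Figure D1:**
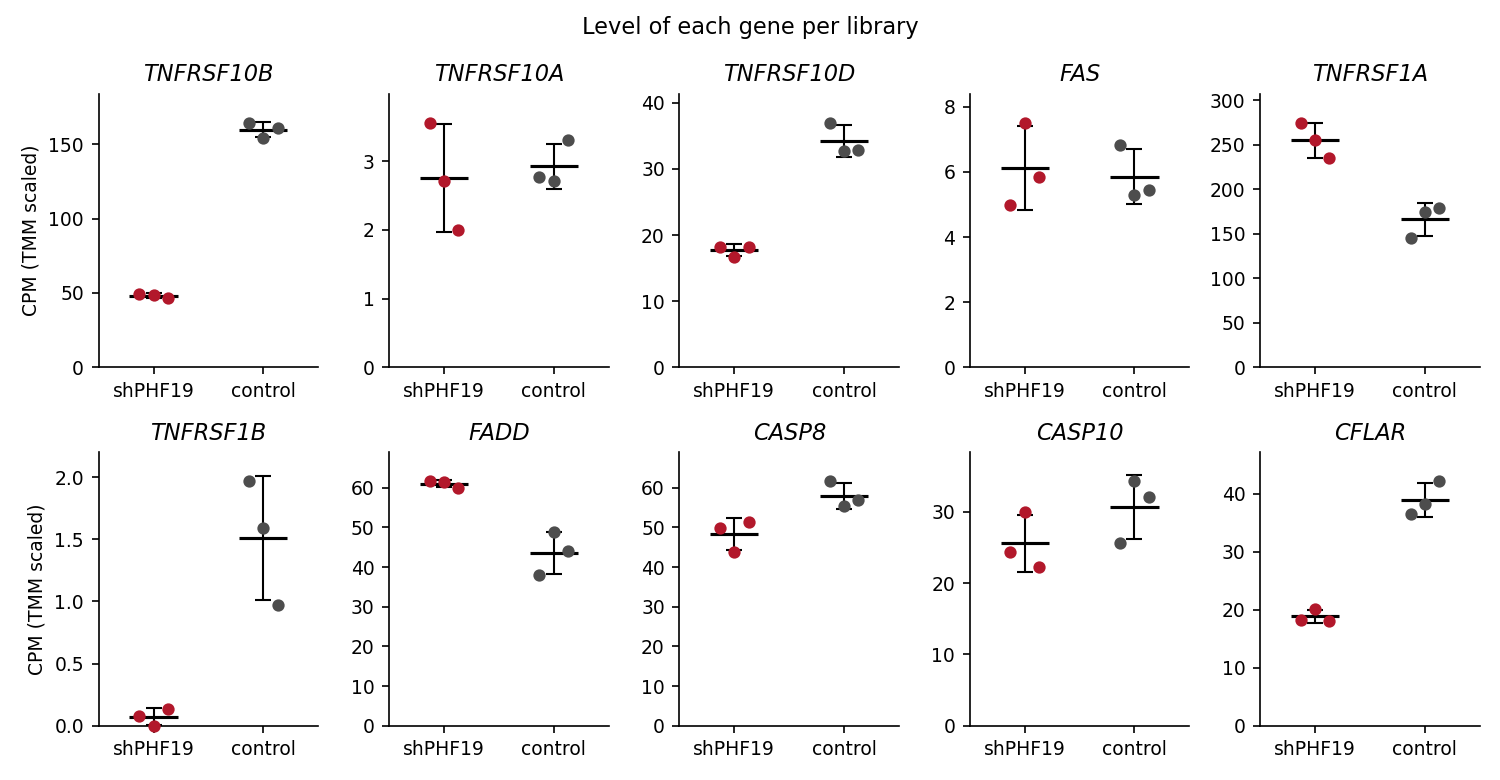
Level of each of the 10 genes in CPM (vertical axes, TMM scaled, each from 0) in the 3 shPHF19 and 3 control libraries; points are libraries, horizontal lines means and bars 1 SD. TNFRSF10B, TNFRSF10D, TNFRSF1B, CFLAR and, by a small margin, CASP8 lie lower in every shPHF19 library, and TNFRSF1A and FADD higher. TNFRSF10A, FAS and CASP10 overlap between the groups.

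TNFRSF10B, which encodes the TRAIL receptor DR5, was the TRAIL receptor with the most counts and fell the most among the 3. It stood at 49.5, 48.3 and 46.3 CPM in shPHF19 libraries, against 164, 154 and 161 CPM in control libraries. The groups were far apart relative to their spread, with means of 48.05 ± 1.64 CPM in shPHF19 and 160 ± 5.19 CPM in control libraries (SD, n = 3 each), a 3.32-fold lower level. The log2 fold change was -1.73 (SE 0.0903; edgeR adjusted p = 1.35e-21), and 4.16% of all genes tested had a lower one. In GENCODE 29 (GRCh38) it occupies bases 23020133 to 23069179 of chromosome 8, on the minus strand. Its annotated exons share 67 bases with RHOBTB2 on the opposite strand, a gene with 164, 178 and 139 counts in shPHF19 and 453, 502 and 428 counts in control libraries. No source used here says whether the counting used strand.

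TNFRSF10D encodes DcR2, a TRAIL receptor with a truncated death domain that binds the ligand without passing on the death signal. It was at 18.2, 16.6 and 18.2 CPM in shPHF19 libraries, against 37.0, 32.7 and 32.9 CPM in control libraries. Every shPHF19 value was below every control value, and the log2 fold change was -0.95 (SE 0.125; edgeR adjusted p = 6.30e-09). Its locus, bases 23135588 to 23164030 of chromosome 8, lies beside that of TNFRSF10A at 23190452 to 23225126, both on the minus strand. These receptors are paralogs, so a share of their reads could be assigned to another family member, and how the counting handled such reads is not stated.

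TNFRSF10A, which encodes the TRAIL receptor DR4, had few counts: 48, 42 and 29 in shPHF19 libraries and 45, 46 and 51 in control libraries. In CPM these were 3.56, 2.72 and 1.99 in shPHF19 libraries, against 2.76, 2.71 and 3.30 in control libraries, and the groups overlapped. The log2 fold change was -0.09 with a 95% interval of -0.69 to 0.51 (edgeR adjusted p = 0.821), an interval that leaves out a change of the size seen for TNFRSF10B but not changes within its bounds.

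Within a library, the proportions of the 3 TRAIL receptors lay apart between the groups, a measure that does not depend on scaling between libraries. For every 100 counts of TNFRSF10B there were 36.8, 34.5 and 39.2 counts of TNFRSF10D in shPHF19 libraries, against 22.5, 21.2 and 20.5 in control libraries. For every 100 counts of TNFRSF10B there were 7.19, 5.63 and 4.31 counts of TNFRSF10A in shPHF19 libraries, against 1.68, 1.76 and 2.06 in control libraries. The groups did not overlap in either ratio. The log2 ratio of TNFRSF10D to TNFRSF10B was higher by 0.78 in shPHF19 cells and that of TNFRSF10A to TNFRSF10B by 1.62 (2-sided exact permutation over libraries, p = 0.1 for each, unadjusted over the 5 ratios computed; 3 against 3 allows no smaller p).

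**Figure D2:**
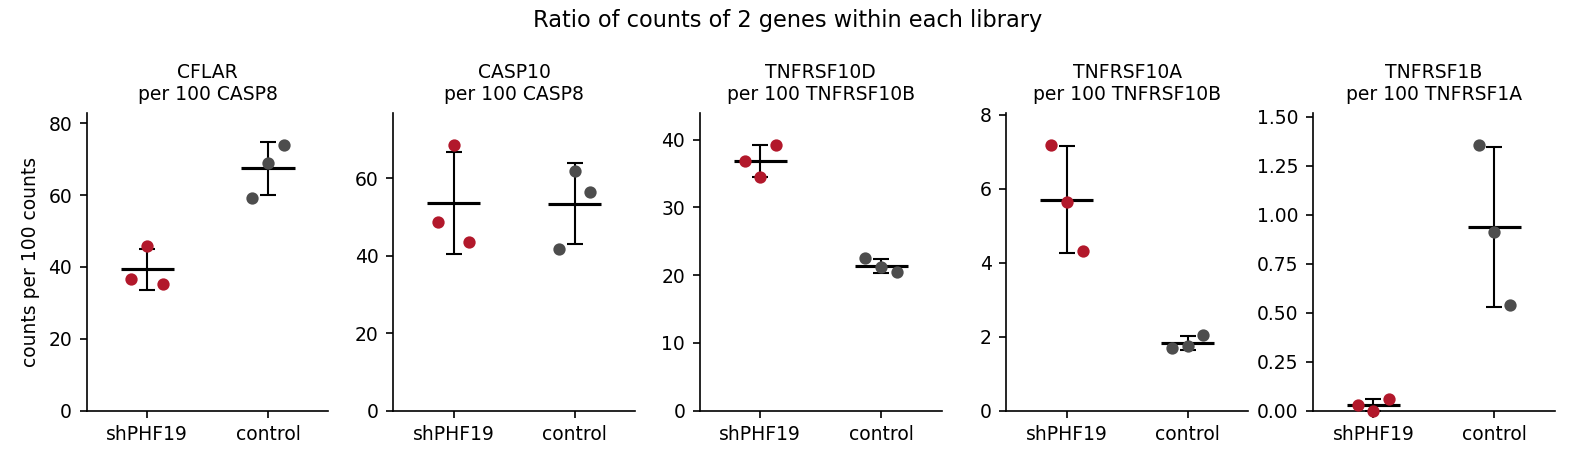
Counts of the first gene per 100 counts of the second within each library (vertical axes, each from 0), for 5 pairs of genes in the 3 shPHF19 and 3 control libraries; points are libraries, lines means and bars 1 SD. The groups are separate in 4 ratios, while CASP10 per 100 CASP8 overlaps with means of 53.6 in shPHF19 and 53.3 in control libraries.

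FAS encodes the receptor for Fas ligand. It had 67, 116 and 85 counts in shPHF19 libraries and 111, 90 and 84 counts in control libraries, which is 4.97, 7.51 and 5.85 CPM in shPHF19 against 6.82, 5.30 and 5.44 CPM in control libraries. The groups overlapped, and the log2 fold change was 0.07 with a 95% interval of -0.35 to 0.48 (edgeR adjusted p = 0.806). Its sign turned with library totals only, with upper-quartile factors and without shPHF19 replicate 2, so no direction is given. FAS lies on the plus strand of chromosome 10 from 88990582 to 89015785, and its exons share 380 bases with ACTA2 on the opposite strand, which had 12 to 29 counts in shPHF19 and 18 to 39 in control libraries.

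The TNF receptors moved in opposite directions. TNFRSF1A, which encodes TNFR1, the TNF receptor with a death domain, rose, and TNFRSF1B, which encodes TNFR2, a receptor without one that signals through TRAF proteins, fell to a few counts. TNFRSF1A was at 275, 255 and 236 CPM in shPHF19 libraries, against 145, 175 and 180 CPM in control libraries, with no overlap and a 1.53-fold higher mean. Its log2 fold change was 0.62 (SE 0.0875; edgeR adjusted p = 4.30e-08). TNFRSF1B had 1, 0 and 2 counts in shPHF19 libraries, against 32, 27 and 15 counts in control libraries. In CPM these were 0.0742, 0 and 0.138 in shPHF19 libraries, each below the 0.194 to 0.223 CPM that 3 counts make there, against 1.97, 1.59 and 0.972 in control libraries. Over the groups, 3 counts in shPHF19 and 74 in control libraries make a ratio of 22.02 control over shPHF19, with an exact 95% counting interval of 7.25 to 109 (Clopper-Pearson, covering counting error only). The fitted log2 fold change was -4.30 (SE 0.750, edgeR adjusted p = 2.93e-06) and depends on the prior count of the fit. Without 1 library each it ran from -5.15, without shPHF19 replicate 3, to -3.72. For every 100 counts of TNFRSF1A there were 0.0270, 0 and 0.0584 counts of TNFRSF1B in shPHF19 libraries, against 1.36, 0.911 and 0.541 in control libraries (2-sided exact permutation, p = 0.1, the lowest value this design can give). TNFRSF1B was thus a minor TNF receptor transcript in both groups.

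The stretches before the starts of these receptor genes, from RefSeq (GRCh38.p14), are shown because the pair moved in opposite directions. They are the parts of the 250 bases before the start that hold no exon in GENCODE 29, at chr1:12166741-12166942 on the plus strand and chr12:6342115-6342326 on the minus strand, written 5′ to 3′ with no capitals because neither motif searched for occurs in them.
TNFRSF1B: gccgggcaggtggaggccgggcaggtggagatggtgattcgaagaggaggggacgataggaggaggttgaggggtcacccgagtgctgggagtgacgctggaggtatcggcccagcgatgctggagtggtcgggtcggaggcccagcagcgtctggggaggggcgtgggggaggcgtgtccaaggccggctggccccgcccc
TNFRSF1A: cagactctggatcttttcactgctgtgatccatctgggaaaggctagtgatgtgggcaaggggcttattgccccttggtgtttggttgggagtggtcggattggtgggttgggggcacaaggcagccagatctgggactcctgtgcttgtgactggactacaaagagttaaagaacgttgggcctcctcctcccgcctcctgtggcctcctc
The full windows differed in base composition, with 72.4% G and C for TNFRSF1B and 56.8% for TNFRSF1A. The motifs were the kappaB consensus, bound by NF-kappaB, and the core TGATGNAA of the response element shared by C/EBP and ATF factors, both searched on either strand.

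**Figure D3:**
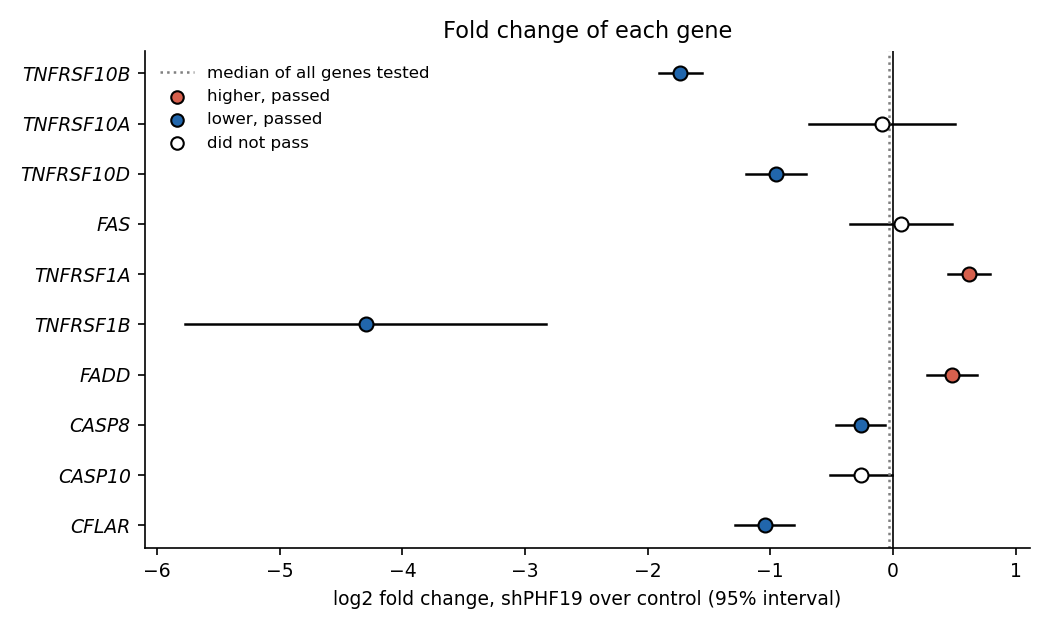
Log2 fold change of each gene, shPHF19 over control (horizontal axis), with its 95% interval; filled points had an adjusted p under 0.05 (edgeR), and the dotted line is the median of all genes tested (-0.03). TNFRSF1B at -4.30 and TNFRSF10B at -1.73 lie farthest to the left, and TNFRSF1A at 0.62 and FADD at 0.49 to the right.

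FADD, the adaptor that links receptor death domains to the death effector domains of the caspases, rose. It was at 61.6, 61.4 and 60.1 CPM in shPHF19 libraries, against 38.0, 48.8 and 44.0 CPM in control libraries. The groups did not overlap, and the mean was 1.40-fold higher (log2 fold change 0.49, SE 0.104; edgeR adjusted p = 8.27e-05). With library totals only, which move the median of all genes by -0.20 on the log2 scale, the rise was 0.28 and was still called (edgeR adjusted p = 0.0190). The gene lies on the plus strand of chromosome 11 from 70203163 to 70207390.

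CFLAR, CASP10 and CASP8 are neighbours on the plus strand of chromosome 2, at 201116104 to 201176687, 201182881 to 201229406 and 201233443 to 201287711. CFLAR fell the most of the 3. It was at 18.3, 20.1 and 18.1 CPM in shPHF19 libraries, against 36.6, 38.2 and 42.2 CPM in control libraries, a 2.07-fold lower mean with no overlap (log2 fold change -1.05, SE 0.121; edgeR adjusted p = 2.72e-10). Counts per gene do not tell the long and short forms of cFLIP apart. The antisense gene CFLAR-AS1, whose exons share 777 bases with CFLAR, had 0 counts in every shPHF19 library and 0 to 3 in the control libraries.

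CASP8 and CASP10, the initiator caspases, had nearly the same fold change and lay on either side of the threshold. CASP8 was at 49.9, 43.8 and 51.3 CPM in shPHF19 libraries, against 61.6, 55.4 and 57.0 CPM in control libraries. The groups did not overlap but lay close, and the log2 fold change was -0.26 with a 95% interval of -0.46 to -0.06 (edgeR adjusted p = 0.0237). That call was lost without shPHF19 replicate 2 (adjusted p = 0.201), control replicate 1 (0.0918) or control replicate 3 (0.0528), with the replicate number as a block (0.0589) and with every gene that had a count in the fit (0.0553; edgeR throughout), and over all alternatives the adjusted p ran from 0.000168 to 0.201. CASP10 was at 24.3, 30.04 and 22.3 CPM in shPHF19 libraries, against 25.7, 34.3 and 32.1 CPM in control libraries, which overlap. Its log2 fold change was also -0.26, with a 95% interval, unadjusted over genes, of -0.52 to -0.01 (edgeR adjusted p = 0.0742). It passed without shPHF19 replicate 2 (adjusted p = 0.0236) or control replicate 1 (0.0118), with library totals only (0.00229) and with upper-quartile factors (0.0124; edgeR throughout), and over all alternatives the adjusted p reached 0.339. The log2 ratio of CASP10 to CASP8 within a library differed by -0.00 between the groups (2-sided exact permutation, p = 1), and by -0.19 to 0.14 without 1 library each. Its SD over libraries was 0.342 in shPHF19 and 0.298 in control cells. The observed difference was thus smaller than the spread between replicates, and so few libraries cannot exclude a larger one.

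In these libraries the CFLAR transcript fell by more than that of CASP8. For every 100 counts of CASP8 there were 36.7, 45.9 and 35.3 counts of CFLAR in shPHF19 libraries, against 59.3, 69.0 and 74.0 in control libraries. The groups did not overlap, with means of 39.3 ± 5.80 in shPHF19 and 67.4 ± 7.46 in control libraries (SD, n = 3 each) and a difference in the log2 ratio of -0.78 (2-sided exact permutation, p = 0.1, as low as the design permits). These are proportions of RNA, not of protein.

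RefSeq windows before the start were at hand for 6 of the 10 genes (13 windows, since CFLAR, CASP8 and FAS have several starts). The kappaB consensus occurred in 2 of them, 1 for CFLAR and 1 for FAS, beside 5.21% of all 35116 windows of the same 250 bases, and TGATGNAA in 0 of the 13, beside 3.14% of all. Both kappaB matches are shown with 10 bases on either side, because CFLAR is described as an NF-kappaB target. Capitals mark the motif. It begins 97 bases before 1 of the starts of CFLAR and 157 bases before 1 of those of FAS. The stretches are chr2:201118609-201118638 and chr10:88991264-88991293 (GRCh38.p14, plus strand). Both lie inside the annotated genes, which begin at 201116104 for CFLAR and 88990582 for FAS. These windows were not trimmed to bases without exons. The FAS window has 0 such bases. The exon-free stretch recorded for the CFLAR window, 25 bases at 201118466 to 201118490, ends before the match.
CFLAR: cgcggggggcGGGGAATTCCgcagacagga
FAS: ggtcgctggaGGGGGACCCCggttggagag
CFLAR fell and FAS did not pass the test, and a match of letters is neither a bound site nor a cause.

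Set per length, TNFRSF1A had the highest level of the 10 genes in both groups and TNFRSF1B the lowest. Per kilobase of merged exons, TNFRSF1A was at 63.7 ± 4.89 CPM in shPHF19 and 41.6 ± 4.66 CPM in control cells (SD, n = 3 each). FADD was at 33.1 ± 0.459 CPM per kilobase and rank 2 of 10 in shPHF19 cells, and at 23.7 ± 2.94 and rank 3 in control cells. TNFRSF10B was at 9.31 ± 0.318 CPM per kilobase and rank 3 in shPHF19 cells, and at 31.0 ± 1.01 and rank 2 in control cells. In shPHF19 cells CASP8 (6.68 ± 0.550 CPM per kilobase), TNFRSF10D (5.00 ± 0.256), CASP10 (3.36 ± 0.529), FAS (1.44 ± 0.303) and TNFRSF10A (0.935 ± 0.265) followed in that order. In control cells TNFRSF10D (9.67 ± 0.680 CPM per kilobase) stood before CASP8 (8.01 ± 0.449), followed by CASP10 (4.04 ± 0.589), FAS (1.38 ± 0.197) and TNFRSF10A (0.991 ± 0.111). In shPHF19 libraries the values of TNFRSF10A overlapped with those of FAS and of CFLAR, so the place of TNFRSF10A is not settled there. Per kilobase of merged exons, every FAS value was above every CFLAR value in these libraries. Several places depended on the length used. For CFLAR, 22.5 kb of merged exons put it at rank 9 in shPHF19 cells (0.837 ± 0.0496 CPM per kilobase) and rank 7 in control cells (1.73 ± 0.128), while the 1.65 kb median of its coding transcripts put it at rank 6 in shPHF19 cells (11.5 ± 0.679) and rank 4 in control cells (23.7 ± 1.75). With the median coding transcript as length, CASP8 in control cells was at 30.4 ± 1.71 and rank 3, before TNFRSF10D at 9.67 ± 0.680 and rank 7, which turns round the order of these genes with merged exons. TNFRSF10B was then at rank 4 in shPHF19 and rank 2 in control cells, and FADD at rank 2 in shPHF19 and rank 5 in control cells, where FADD and CFLAR did not differ beyond their spread. TNFRSF1A held rank 1 and TNFRSF1B rank 10 in both groups with either length.

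The rest of the route was described with 8 lists of 87 genes, chosen with earlier results of these data known, so their shares are descriptive only. Of the 87 genes, 75 were tested. Of these, 50 passed (66.7%, beside 60.2% of all genes), 33 lower (44%, beside 30.9%) and 17 higher (22.7%, beside 29.4%), and their median log2 fold change was -0.25.

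Transcripts of the ligands were scarce. Only 3 of 8 listed were tested, and 2 fell (66.7%, beside 30.9% of all genes). TNFSF14 (LIGHT) had 2, 0 and 6 counts in shPHF19 libraries, against 45, 34 and 29 in control libraries (log2 fold change -3.53; edgeR adjusted p = 1.42e-06; -2.92 without shPHF19 replicate 2 and -4.84 without shPHF19 replicate 3). TNFSF10, which encodes TRAIL, had 25, 18 and 15 counts in shPHF19 libraries, against 41, 34 and 48 in control libraries (-0.91; edgeR adjusted p = 0.0352), a call lost without any one of shPHF19 replicates 2 and 3 and control replicates 1 and 3 (adjusted p 0.0612 to 0.154). TNF did not pass, at 22, 8 and 14 counts in shPHF19 libraries and 27, 34 and 27 in control libraries (-0.81; edgeR adjusted p = 0.103); it passed without shPHF19 replicate 1 and with library totals only (adjusted p 0.0345 to 0.0396). FASLG was at 0 in every library.

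Among other receptors of the family 5 of 9 were tested, and all 5 passed, beside 60.2% of all genes. Of these, 4 were lower (80%, beside 30.9%) and 1 higher (20%, beside 29.4%). TNFRSF21 (DR6), which carries a death domain, averaged 8.10 ± 1.83 CPM in shPHF19 and 20.3 ± 0.322 CPM in control cells (log2 fold change -1.32; edgeR adjusted p = 1.16e-09). TNFRSF14, a receptor for LIGHT (-1.01), and TNFRSF12A, the receptor for TWEAK (-1.11), fell as well. LTBR, the lymphotoxin beta receptor, rose to 64.2 ± 4.57 CPM in shPHF19 cells, against 44.5 ± 3.78 CPM in control cells (0.53; edgeR adjusted p = 1.83e-05; SD, n = 3 each). TNFRSF10C, which encodes another decoy receptor for TRAIL, was not tested. It had 0, 0 and 2 counts in shPHF19 libraries and 6, 10 and 1 in control libraries.

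**Figure D4:**
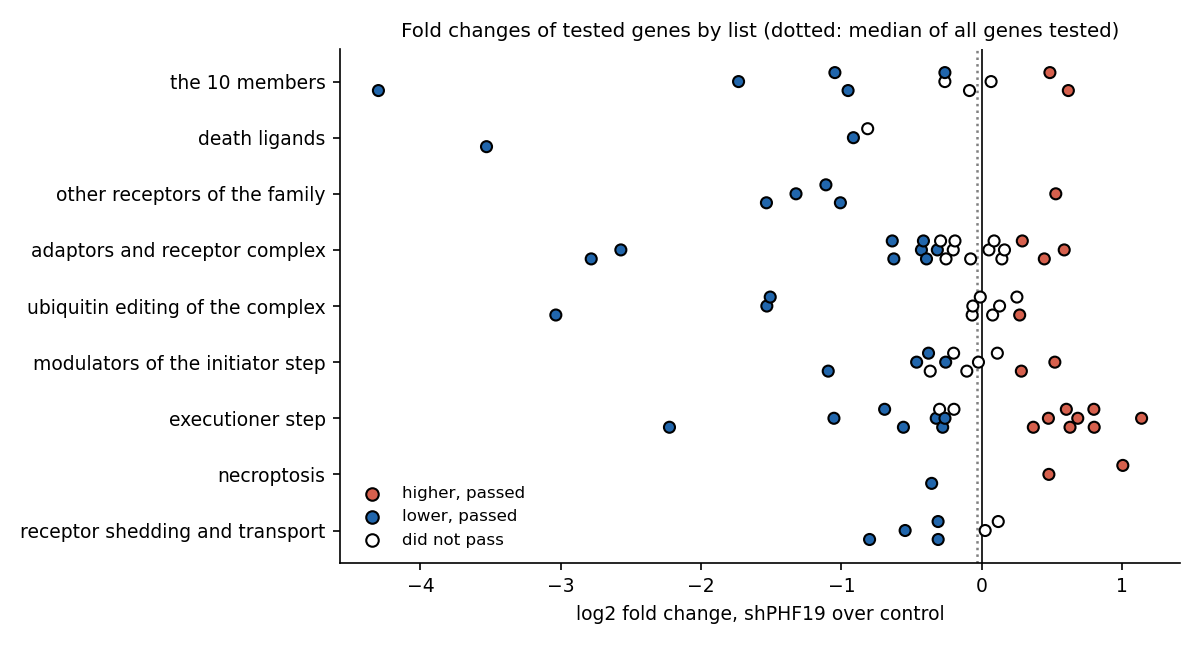
Log2 fold change, shPHF19 over control (horizontal axis), of every tested gene of the 10 members and of 8 further lists (rows); filled points had an adjusted p under 0.05 (edgeR), and the dotted line is the median of all genes tested. The executioner step holds 8 higher and 7 lower genes, while other receptors hold 1 higher and 4 lower. Of all genes tested, 29.4% were higher and 30.9% lower.

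Of 20 adaptors and kinases of the receptor complexes, all tested, 8 fell (40%, beside 30.9% of all genes), 3 rose (15%, beside 29.4%) and 9 did not pass. With library totals only 13 were lower and 2 higher, and with upper-quartile factors 12 were lower and 2 higher. The largest falls were those of TRAF1 and BIRC3. TRAF1 was at 4.92 ± 1.01 CPM in shPHF19 and 33.8 ± 3.34 CPM in control cells (log2 fold change -2.78, edgeR adjusted p = 4.39e-20). BIRC3, which encodes the ubiquitin ligase cIAP2, was at 0.778 ± 0.582 CPM in shPHF19 and 4.69 ± 0.802 CPM in control cells (SD, n = 3 each). Its log2 fold change was -2.57 (edgeR adjusted p = 5.89e-08). It ran from -3.36 without shPHF19 replicate 3 to -2.25 without shPHF19 replicate 1. TAB2, an adaptor of the kinase TAK1, fell too (-0.64), while TRAF2, which bridges TNFR1 to the cIAPs, rose (0.59; edgeR adjusted p = 3.39e-06). BIRC2, which encodes cIAP1, had a log2 fold change of -0.25 and TAB1 one of -0.08 (edgeR adjusted p = 0.0501 and 0.540). TAB1 passed as lower with library totals only (adjusted p = 0.0204). BIRC2 passed under 6 alternatives, among them leaving out shPHF19 replicate 3 or control replicate 2 (adjusted p from 0.000958 to 0.0444).

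Among 10 genes listed for ubiquitin editing at these complexes, 3 fell (30%, beside 30.9% of all genes), 1 rose (10%, beside 29.4%) and 6 did not pass. With library totals only 5 were lower and 0 higher. TNFAIP3 (A20), which edits ubiquitin chains, was at 9.39 ± 2.12 CPM in shPHF19 and 77.1 ± 5.33 CPM in control cells (log2 fold change -3.04; edgeR adjusted p = 8.33e-25). CYLD, a deubiquitinase of the same complexes, was at 29.5 ± 3.49 CPM in shPHF19 and 83.9 ± 3.97 CPM in control cells (-1.51; edgeR adjusted p = 3.90e-17). RBCK1 (HOIL-1), a subunit of the linear ubiquitin ligase, fell by 1.53 on the log2 scale to 35.9 ± 4.94 CPM in shPHF19 cells, against 104 ± 6.49 CPM in control cells. RNF31 (HOIP), the catalytic subunit of that ligase, rose by 0.27 (edgeR adjusted p = 0.0364), a call lost without shPHF19 replicate 2, control replicate 1 or control replicate 2 and under library totals and upper-quartile factors (adjusted p 0.107 to 0.653). OTULIN and TNIP1 had log2 fold changes of -0.06 and -0.07 (edgeR adjusted p = 0.526 and 0.509); with library totals only, which move the median of all genes by -0.20, each passed as lower (adjusted p = 0.00547 and 0.00533).

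Of 11 modulators of the initiator step tested, 4 fell (36.4%, beside 30.9% of all genes), 2 rose (18.2%, beside 29.4%) and 5 did not pass. With library totals only 7 were lower and 1 higher. DAXX, which binds Fas, rose (log2 fold change 0.52; edgeR adjusted p = 1.65e-06), as did RNF34, a ubiquitin ligase described for caspases 8 and 10 (0.28; edgeR adjusted p = 0.00808), whose call was lost with library totals only and with upper-quartile factors (adjusted p 0.0911 to 0.474). RFFL, a ligase related to RNF34, fell (-1.09; edgeR adjusted p = 1.02e-05), and so did CASP8AP2, which encodes the caspase-8-binding protein FLASH (-0.38; edgeR adjusted p = 0.00357). ARAP1 and FAF1 had log2 fold changes of -0.02 and -0.11 (edgeR adjusted p = 0.825 and 0.289), and both passed as lower with library totals only.

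Of 17 genes of the executioner step 15 passed (88.2%, beside 60.2% of all genes), 8 higher (47.1%, beside 29.4%) and 7 lower (41.2%, beside 30.9%). BID, whose cleavage by caspase 8 carries the signal to mitochondria, rose to 121 ± 6.01 CPM in shPHF19 cells, against 69.1 ± 4.65 CPM in control cells (log2 fold change 0.80; edgeR adjusted p = 1.43e-10). PARP1, a caspase substrate, rose (0.68), whereas the substrates GSN (gelsolin, -0.69) and LMNA (lamin A/C, -2.23) fell. CASP9, the initiator caspase of the mitochondrial route, did not pass, at 13.8 ± 3.37 CPM in shPHF19 and 17.0 ± 2.56 CPM in control cells (-0.30; edgeR adjusted p = 0.102). It passed as lower without shPHF19 replicate 1, with library totals only and with upper-quartile factors (adjusted p from 0.00697 to 0.0260).

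For necroptosis, the caspase-independent death that follows when caspase 8 is blocked, 3 of 5 listed genes were tested. MLKL, its membrane-permeabilising effector, rose (log2 fold change 0.48; edgeR adjusted p = 0.000198) and so did PGAM5 (1.005; edgeR adjusted p = 7.85e-14). PELI1 fell (-0.36; edgeR adjusted p = 0.0336), a call lost without shPHF19 replicate 1 or 2 or control replicate 1 or 3, with the replicate number as a block and with every gene that had a count (adjusted p 0.0519 to 0.167). RIPK3, the kinase that activates MLKL, had 0 counts in every shPHF19 library and 2, 0 and 5 in control libraries, and ZBP1 had 0 in every library.

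Genes of receptor shedding and transport were the last list, with 4 of 6 lower (66.7%, beside 30.9% of all genes) and none higher (beside 29.4%). ADAM17, the protease that sheds TNF and its receptors, was at 39.9 ± 1.74 CPM in shPHF19 and 69.6 ± 2.88 CPM in control cells (log2 fold change -0.80; edgeR adjusted p = 2.23e-09; SD, n = 3 each). GOLGA7, a partner of a palmitoyltransferase (-0.55), and the peptidase gene ERAP1 (-0.31) also fell. ADAM10 fell (-0.31; edgeR adjusted p = 0.00368), which did not pass when control replicate 1 was left out (adjusted p = 0.0763). ZDHHC7, a palmitoyltransferase gene, and CLTC, the clathrin heavy chain gene, had log2 fold changes of 0.12 and 0.02 (edgeR adjusted p = 0.284 and 0.824), and both turned negative with library totals only.

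The authors' deposited table lists 6 of the 10 genes among its 5740. In the authors' deposited table the log2 fold changes were -1.70 for TNFRSF10B, -0.91 for TNFRSF10D, 0.63 for TNFRSF1A, -3.92 for TNFRSF1B, 0.49 for FADD and -1.004 for CFLAR. TNFRSF10A, FAS, CASP8 and CASP10 are not among the genes of the authors' deposited table, whose largest adjusted p is 0.00993 and smallest absolute log2 fold change 0.32.

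**Figure D5:**
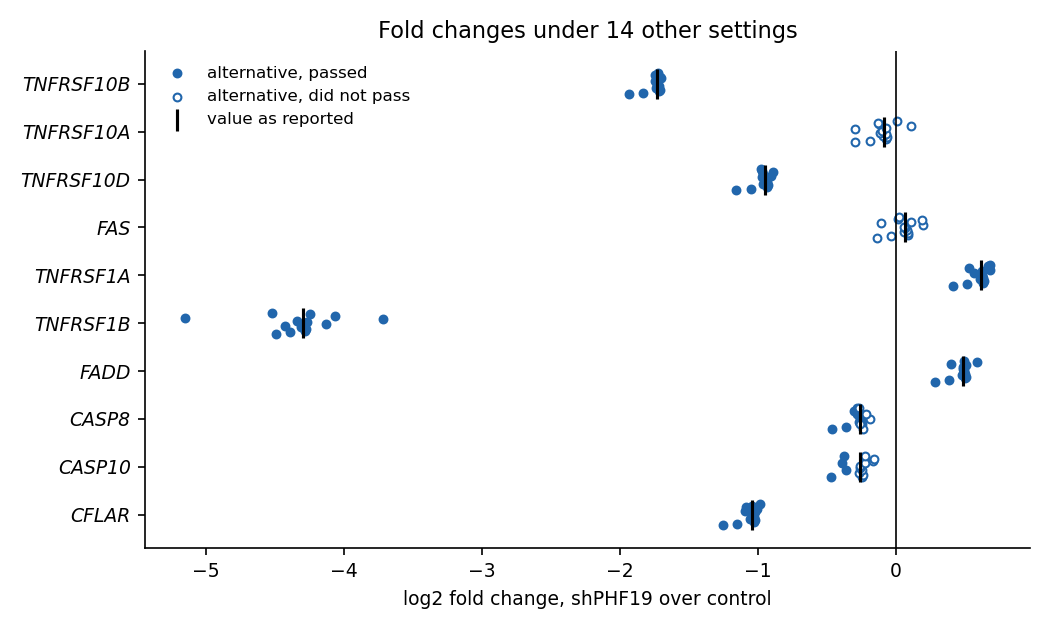
Log2 fold change of each gene, shPHF19 over control (horizontal axis), as reported (black tick) and under 14 other settings of scaling, filter, tool, block and left-out library (points, filled where the adjusted p was under 0.05). TNFRSF10B, TNFRSF10D, TNFRSF1A, TNFRSF1B, FADD and CFLAR kept their side of the threshold in all 14, and CASP8 and CASP10 lay on both sides of it.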

How the data were processed

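Counts, CPM and tests bear on 6 libraries of Kasumi-1 cells. Per the labels' protocols, total RNA was isolated with TRIzol and libraries made with the KAPA Hyper Prep kit. The authors deposited whole-number counts per gene symbol (26410 rows, not normalized, 6991 with no count), and a table of their own comparison with a mean normalized signal, log2 fold changes and p-values per gene. The tools named in the submitters' processing notes are HISAT2 2.1.0 and HTSeq 0.11.2, with hg38 as the build; annotation, strand setting and the tool behind the authors' table are not stated there. In the counts the authors deposited, 28 gene names are dates (0.195% of counts); they were kept in the fit and are not named.

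Groups came from the sample titles. All genes passing filterByExpr were tested with edgeR 4.0.16 (R 4.3.3), TMM scaling and the robust quasi-likelihood F test with group as the only term, and p-values were adjusted by Benjamini-Hochberg over all genes (threshold 0.05). The standard error is the log2 fold change over the square root of F. Alternatives used limma 3.58.1 and DESeq2 1.42.0. No library was a duplicate of another: chi-square per degree of freedom between replicates was 4.63 to 11.7. Positions and lengths came from GENCODE 29. Log2 ratios within a library add 0.5 to each count. Genes named are PHF19, the 10 members and, of each further list, up to 4 that passed with the smallest adjusted p and up to 2 that did not pass with the highest level; other genes are given by their counts only, and some results are not reported here. The members, lists and tests were chosen with earlier results of these data known.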

Additional observations from a re-analysis of the deposited data

How the results depend on the processing

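Of 140 member values under 14 alternatives, 126 kept their direction and their side of the threshold, and the rest concern CASP8, CASP10, FAS and TNFRSF10A. The number of members called higher was 2 in every alternative, and the number called lower 4 to 6. FAS turned negative with library totals only (-0.14), with upper-quartile factors (-0.036) and without shPHF19 replicate 2 (-0.11; -0.11 to 0.20 over left-out libraries), and TNFRSF10A turned positive without shPHF19 replicate 3 (0.10) or control replicate 3 (0.0090; -0.30 to 0.10 over left-out libraries); neither was called in any. ARAP1 turned positive without shPHF19 replicate 3 (0.042), control replicate 2 (0.0024) or control replicate 3 (0.028), with -0.086 the lowest. CLTC turned negative with library totals only (-0.18), with upper-quartile factors (-0.078) and without shPHF19 replicate 3 (-0.035) or control replicate 2 (-0.046), with 0.098 the highest, and ZDHHC7 with library totals only (-0.088). The cause was not tested. Leaving out 1 library gave 7095 to 7756 genes called (7835 with all). Scaling by library totals called 2596 genes higher and 5617 lower, which puts 31.6% of calls on the higher side in place of 48.8%, and it set the median over all genes at -0.24 in place of -0.03 (log2). The log2 difference of CFLAR to CASP8 ran from -0.90 to -0.71 without 1 library each. With the replicate number as a block 7307 genes were called and 4 members lower, CASP8 losing its call (-0.26, edgeR adjusted p = 0.0589) and PELI1 too (-0.36, adjusted p = 0.0562), while TNFRSF10B was unchanged in call. The labels do not say whether same-numbered libraries were prepared together. Deviations from the group means of same-numbered libraries correlated at -0.28, -0.02 and -0.07, and no library correlated best with its own number. So few libraries cannot settle whether the numbers pair them. The length of coding transcripts was an alternative chosen after seeing the data. Depth limits TNFRSF1B, TNFRSF10A and FAS, where 3 counts make 0.177 to 0.223 CPM.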
